A study of Mus musculus with 18 samples.

Results

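The difference between Hspa9 cKO and WT that CD8+ T cells carry through 3 subsets, naive, effector and memory, was measured as the genotype effect averaged over the subsets. Poly-A RNA was sequenced from CD8+ T cells of mice labelled cKO, a conditional knockout of Hspa9, and of mice labelled WT, each in 3 libraries per subset. Mice were 8 weeks of age, and their lymph nodes and spleens gave the naive cells; effector and memory cells were obtained from these by differentiation in culture. All 18 libraries entered. The labels name neither the Cre line nor the deleted exons, and nothing in them tells whether the 3 libraries of a group came from different mice, so SD, SE and p-values measure the spread between these libraries only. Of 27830 genes listed in any of the 3 tables, 20825 were listed in all 3 and 20198 remained once genes of the X and Y chromosomes were left out. Of these, 12165 had at least 10 normalised reads in at least 3 of the 6 libraries of every subset and were tested. A normalised read is a read divided by a scaling factor of its library, set by the authors within each subset. An effect is the mean of log2(normalised reads + 1) in cKO minus that in WT within 1 subset. The average effect is the mean of the 3, and each is given with its SE from limma, with Benjamini-Hochberg adjustment and a threshold of 0.05.

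Hspa9 encodes GRP75, also called mortalin, the HSP70 chaperone of the mitochondrial matrix. It draws proteins through the inner membrane, folds them, takes part in iron-sulfur cluster assembly and helps to tether mitochondria to the endoplasmic reticulum. A naive CD8+ T cell is quiescent, an effector cell divides and makes cytotoxic and cytokine proteins, and a memory cell returns to quiescence and keeps the ability to respond again.

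Hspa9 reads were higher, not lower, in the libraries labelled cKO. Hspa9 (chromosome 18, 35070467 to 35087410, GRCm39) had 6448, 6718 and 6149 normalised reads in naive cKO libraries, against 4095, 3789 and 4093 in naive WT libraries. Effector cells held 2168, 2450.1 and 2401 in cKO and 2001, 2138 and 2140.0 in WT. Memory cells held 5778, 5669 and 5463 in cKO and 3916, 4154 and 4053 in WT. The genotypes did not overlap in any subset. The average effect was 0.44 (SE 0.03, limma adjusted p = 1.1e-09), made of 0.69 (naive), 0.16 (effector) and 0.48 (memory), and the effector effect alone did not pass the test (adjusted p = 0.091). The authors' own comparison of effector cells, with DESeq2 named in their notes, gave an adjusted p of 0.044 for Hspa9. An exact two-sided permutation test within subsets gave p = 0.00025, the smallest that 8000 arrangements allow. The reads are summed over the gene and do not show which exons they come from. Since the direction runs against the label, cKO below names the libraries labelled cKO.

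Depth was alike, from 14771251 to 18049774 reads per library. Cd8a lay between 16461 and 28571 normalised reads and Cd3e between 5569.7 and 8333 over all 18 libraries, the defining CD8 alpha and CD3 epsilon chains, with Cd4 between 19.0 and 249. Naive cKO libraries differed from naive WT libraries in sex-linked RNA. The Y-linked genes Ddx3y, Eif2s3y, Kdm5d and Uty averaged 2907, 1699, 1275 and 487 normalised reads in naive cKO libraries and 0 in naive WT libraries, and Xist averaged 4428 in naive cKO and 16393 in naive WT libraries. Xist lay between 10152 and 17168 in cultured cKO libraries and between 13419.6 and 17598 in cultured WT libraries. The same Y-linked genes were not listed for effector or memory cells of either genotype. For the naive effect, sex and genotype cannot be told apart, also on autosomes, so counts over all genes are also given without naive cells.

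Over the 3 subsets, 1666 genes rose on average in cKO (13.7% of the genes tested) and 1726 fell (14.2%), of which 242 and 29 changed at least 2-fold on average. The average often hid unlike subsets. Of the genes called higher on average 1036 had the same sign in all 3 subsets (8.52% of the genes tested), and of those called lower 1102 (9.06%). Signs were shared by 31.7% of all 12165 genes. The effect itself differed between subsets in 3524 genes (29.0%, moderated F test), among them 974 of the genes called higher on average and 722 of those called lower. A call on average, 1 sign and no call of a difference came together in 628 higher and 864 lower genes. Without naive cells 1423 genes were called higher and 1298 lower on average over effector and memory cells.

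A call in every subset was rare. The joint fit of all 18 libraries shares 1 estimate of the spread per gene over the subsets. It called 1713 genes higher (14.1%) and 1781 lower (14.6%) in naive cells. In effector cells it called 744 (6.12%) and 552 (4.54%), and in memory cells 1263 (10.4%) and 1350 (11.1%). Fitted alone, naive cells had 1578 (13.0%) and 1542 (12.7%), effector cells 1178 (9.68%) and 1131 (9.3%), and memory cells 1053 (8.66%) and 836 (6.87%). In the joint fit 171 genes rose in all 3 subsets (1.41%) and 43 fell (0.353%), while 119 genes were called in all 3 without sharing 1 sign. Libraries of the genotypes did not overlap in any subset for 163 of the 171 and 38 of the 43, beside 2.75% and 1.24% of all genes tested. The calls were made on these same libraries, so little overlap follows from the choice of genes. Sizes were described among these genes, whose signs are shared by definition. The least of the 3 effects was at least 2-fold in 49 of the 171 and 4 of the 43, the largest lay within 1.5 times of the least in 37 and 8, and the effect differed between subsets in 86 and 21. Among the 171, the largest effect was in naive cells for 80 genes, in effector cells for 31 and in memory cells for 60. Among the 43 it was in memory cells for 30. With naive cells left out, 367 genes rose and 141 fell in both cultured subsets, a count that asks for calls in fewer subsets. The authors' deposited table of each subset, read by its own adjusted p-values, called 171 tested genes higher and 41 lower in all 3 subsets, of which 129 and 29 were also called here.

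**Figure D1:**
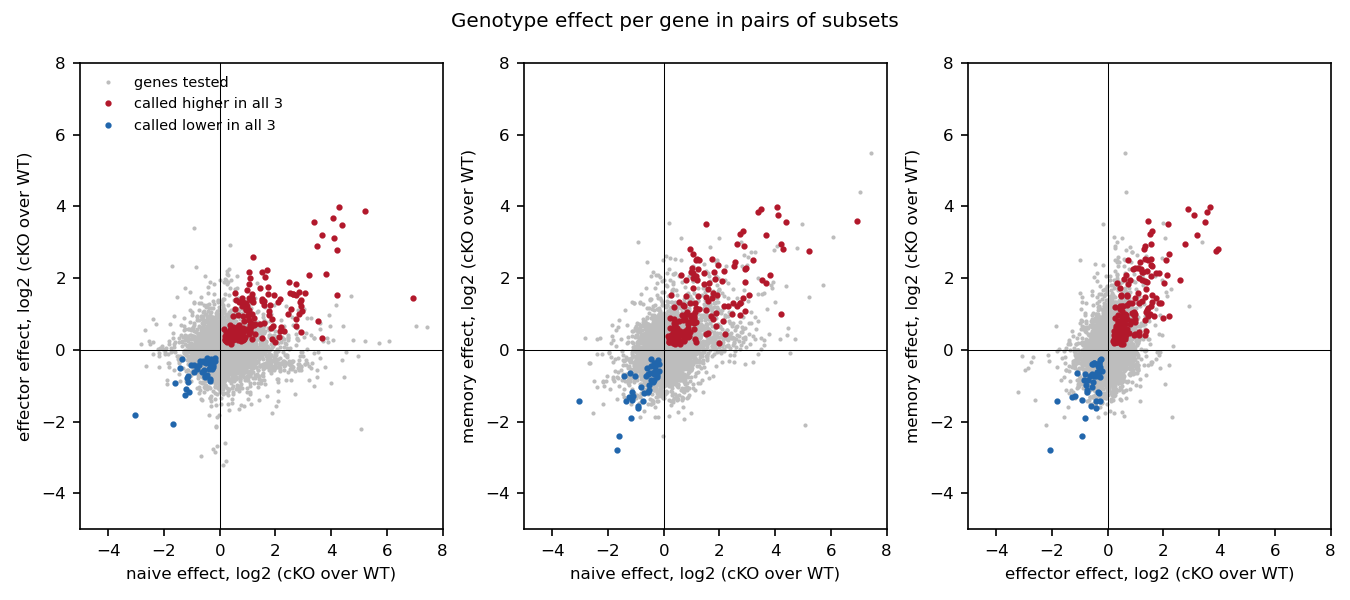
Genotype effect (log2, cKO over WT) of each gene tested in pairs of subsets, naive against effector, naive against memory and effector against memory; red and blue points are the 171 genes called higher and the 43 called lower in all 3. The coloured points lie in the shared quadrants by their definition, while the grey points of the other genes spread over all quadrants, most evenly in the panel of naive and effector cells.

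Agreement was also read in libraries that had no part in choosing the genes, with each subset fitted alone. The 3 subsets share no library, though whether they share mice is not stated. Of 317 genes called higher in naive and effector cells, 281 (88.6%) were higher in memory cells, where 44.9% of all genes were, and 202 (63.7%) were called higher there, beside 8.66% of all genes. Of 123 called lower in that pair, 107 (87.0%) were lower in memory cells, beside 55.1%, and 50 (40.7%) were called lower, beside 6.87%. For naive cells the shares were lower. Of 401 genes called higher in effector and memory cells, 309 (77.1%) were higher in naive cells (47.2% of all genes) and 202 (50.4%) were called higher (13.0%), while 28 were called lower. Of 170 called lower in that pair, 105 (61.8%) were lower in naive cells (52.8%), 50 (29.4%) were called lower (12.7%) and 22 were called higher. The same was done for effector cells. Of 260 genes called lower in naive and memory cells 155 (59.6%) were lower in effector cells (51.7%), 50 (19.2%) were called lower (9.3%) and 34 were called higher. Of 482 genes called higher in naive and memory cells, 338 (70.1%) were higher in effector cells (48.3%), 202 (41.9%) were called higher (9.68%) and 49 were called lower. Across the 12165 genes, which share libraries and are not independent, Pearson's r of the effects was 0.12 between naive and effector, 0.45 between naive and memory and 0.39 between effector and memory cells. Spearman's rank correlation was lower, at 0.0045, 0.23 and 0.24.

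Gene segments of the T cell receptor gamma and delta chains, which gamma-delta T cells use in place of alpha and beta, rose by a like size in each subset. Trgc2, a gamma constant gene (chromosome 13, 19488819 to 19491721), had 217, 236 and 188 normalised reads in naive cKO libraries and 17.9, 15.1 and 5.45 in naive WT libraries. Effector cells had 451, 476 and 470.4 in cKO and 45.7, 64.4 and 50.4 in WT, and memory cells 881, 719.8 and 696 in cKO and 53.6, 68.0 and 45.2 in WT. Every cKO library of a subset lay above every WT library. The effects of Trgc2 were 4.09, 3.11 and 3.77 in naive, effector and memory cells (average 3.66, SE 0.15, adjusted p = 5.4e-14), without a called difference between subsets (adjusted p = 0.12). Trgc4, another gamma constant gene, had effects of 3.40, 3.58 and 3.83 (average 3.60, SE 0.17). Trgc1 and the delta constant gene Trdc, chosen after their values were seen, averaged 3.36 (SE 0.17) and 1.84 (SE 0.09) and were called in all 3. The gamma constant genes are close paralogs, so their reads can be split between them. Of the 8 gamma-delta markers joined, 5 were tested, and 4 rose on average and in all 3 subsets, with 0 lower. Summed over the 8 markers, cKO and WT libraries held 56.3 ± 4.62 and 10.9 ± 0.941 CPM in naive, 69.7 ± 1.36 and 12.2 ± 0.710 in effector, and 143 ± 18.5 and 22.0 ± 0.560 CPM in memory cells (SD, n = 3 each). No marker of that list was at 0 in a whole group. In bulk RNA, more cells that carry these transcripts and more RNA per cell cannot be told apart.

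Ly49 receptors, encoded by Klra genes, bind MHC class I and are carried by NK cells and some CD8+ T cells. Klra7 (chromosome 6, 130195568 to 130210285) had 68.8, 67.1 and 63.2 normalised reads in naive cKO libraries and 2.11, 1.01 and 4.36 in naive WT libraries. It had 1491, 1435 and 1456 in effector cKO and 137, 117 and 136 in effector WT libraries, and 1868, 1770.1 and 1545 in memory cKO and 135, 154 and 149 in memory WT libraries. The genotypes stood apart in each subset at very unlike levels. Its effects were 4.38, 3.48 and 3.55 (average 3.81, SE 0.12, adjusted p = 6.3e-16). Klra6 rose by 5.22, 3.87 and 2.77 in naive, effector and memory cells, and the effect differed between subsets (adjusted p = 9.7e-05). Naive WT libraries held 1.05, 2.02 and 0 normalised reads of it, so that the naive effect depends on the pseudocount. Klra3 averaged 2.67 (SE 0.11) and Klre1, a lectin-like receptor of the same gene complex, 2.39 (SE 0.23). Reads of Klra genes can be assigned to the wrong copy. Of 22 Ly49 and other KLR genes joined, 10 were tested, of which 9 rose on average, 4 of them in all 3 subsets, and Klrd1, whose product pairs with NKG2 receptors, fell. The 4 called in all 3, Klra7, Klra6, Klra3 and Klre1, had under 10 normalised reads in every naive WT library and passed the filter there through cKO libraries alone, so they had to differ in naive cells and the counts describe only genes that passed. NK cell markers summed to 41.5 ± 0.537 CPM in naive cKO and 40.6 ± 3.10 in naive WT, 5067 ± 330.1 in effector cKO and 4595 ± 172 in effector WT, and 232 ± 16.2 in memory cKO and 158 ± 12.1 in memory WT libraries. Of the 8 NK markers, Ncr1 and Klra8 were at 0 in naive WT libraries, and of 5 tested 4 rose and 1 fell on average. The sums do not show the naive members, of which 4 were called higher and 1 lower (median effect 1.85), beside 1 and 1 in effector and 3 and 0 in memory cells. Their part in the Klra result was not tested.

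Several genes of MHC class II, the molecules that present peptides to CD4+ T cells, and of their assembly partners rose in every subset. H2-Eb1 (chromosome 17, 34524841 to 34535648) had 80.9, 74.9 and 71.3 normalised reads in naive cKO libraries and 20.03, 16.1 and 5.45 in naive WT libraries. It had 1088, 1094 and 1094 in effector cKO and 353, 369.5 and 375 in effector WT, and 4876, 4108 and 4222 in memory cKO and 755, 1026 and 820.2 in memory WT libraries. Again no cKO library fell within the WT range of its subset. The effects of H2-Eb1 were 2.53, 1.57 and 2.35 (average 2.15, SE 0.15, adjusted p = 1.5e-10; adjusted p of a difference 0.089). H2-Ab1, the class II beta chain of I-A, averaged 1.96 (SE 0.09), and Cd74, the invariant chain, 1.74 (SE 0.05), both with a called difference between subsets and the largest effect in memory cells. H2-Aa, the I-A alpha chain, and H2-DMb1, of the peptide-loading molecule H2-DM, chosen after their values were seen, averaged 1.93 (SE 0.13) and 1.77 (SE 0.22). Other genes of the pathway, named after their values were seen, did not share this. H2-DMa had effects of -0.16, 0.85 and 0.48, and the effector effect of H2-DMb2 was not called (adjusted p = 0.12). H2-Ob, of the H2-DM inhibitor H2-O, had effects of -1.38, 0.70 and -0.27, and H2-Oa was not called on average (adjusted p = 0.96).

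Class II promoters are known for a conserved array of short elements, among them a Y box with the letters ATTGG, or CCAAT on the other strand. Since H2-Aa, H2-Eb1 and H2-DMb1 rose in all 3 subsets, the 250 bases before their start are shown (RefSeq, GRCm38.p6, 5′ to 3′ on the gene's strand, chr17:34287824-34288073 on the minus strand, chr17:34305617-34305866 and chr17:34152941-34153190 on the plus strand). Each match of ATTGG or CCAAT is in capitals.
H2-Aa: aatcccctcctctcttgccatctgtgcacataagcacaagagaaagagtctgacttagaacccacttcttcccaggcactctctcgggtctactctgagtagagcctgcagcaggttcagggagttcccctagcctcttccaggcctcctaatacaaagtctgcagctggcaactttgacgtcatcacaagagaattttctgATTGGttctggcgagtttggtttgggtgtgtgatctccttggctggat
H2-Eb1: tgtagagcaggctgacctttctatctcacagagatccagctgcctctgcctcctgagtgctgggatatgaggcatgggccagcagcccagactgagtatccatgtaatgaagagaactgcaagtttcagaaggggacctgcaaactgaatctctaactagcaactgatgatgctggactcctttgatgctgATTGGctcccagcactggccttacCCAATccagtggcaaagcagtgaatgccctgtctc
H2-DMb1: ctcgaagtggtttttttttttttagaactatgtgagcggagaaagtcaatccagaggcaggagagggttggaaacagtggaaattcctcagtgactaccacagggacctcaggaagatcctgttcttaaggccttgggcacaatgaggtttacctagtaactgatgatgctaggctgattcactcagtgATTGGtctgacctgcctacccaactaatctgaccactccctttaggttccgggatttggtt
The match nearest to the 5′ end began 48, 59 and 61 bases before the start of H2-Aa, H2-Eb1 and H2-DMb1, and H2-Eb1 held a second. These 5 letters occur on either strand in 33.8% of 32851 mouse promoter windows of the same length, so a match is a description only. H2-Ab1 is not shown.

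The class II genes are also markers of macrophages and dendritic cells. Of the 19 markers of those cells joined, 7 were tested, 6 rose on average and 4, all of them class II genes or Cd74, rose in all 3 subsets. The markers summed to 44.4 ± 1.76 CPM in naive cKO and 13.6 ± 1.64 in naive WT, 1318 ± 21.3 in effector cKO and 959 ± 5.71 in effector WT, and 2047 ± 208 in memory cKO and 404 ± 29.8 CPM in memory WT libraries. C1qb, Siglech and Clec9a were at 0 in naive WT libraries. Neutrophil markers, of which 0 of 10 were tested, summed to 0.894 ± 0.284 CPM in naive cKO and 0.820 ± 0.490 in naive WT, 55.1 ± 2.61 in effector cKO and 17.4 ± 1.56 in effector WT, and 245 ± 40.6 in memory cKO and 14.4 ± 2.82 in memory WT libraries. B cell markers summed lower in naive cKO than in naive WT libraries, 374 ± 18.4 and 459 ± 20.4 CPM, and higher in effector (308 ± 8.20 in cKO, 232 ± 2.91 in WT) and memory cells (1024 ± 86.5 in cKO, 798 ± 40.2 in WT). In naive cells most markers did not follow the sum, since of 9 B cell markers tested 6 were called higher and 2 lower there, with a median effect of 0.60. Of the 9, 6 rose and 2 fell on average, and Cd22, an inhibitory receptor of B cells, and Igkc, the kappa constant gene, were among those that rose in all 3 subsets. Cd22 had under 10 normalised reads in every naive WT library, so it passed the filter there through cKO libraries alone. The part of other cells in the class II result was not tested. Mpeg1, a pore-forming protein known from macrophages, rose by 1.53, 2.18 and 3.50. Wdfy4, needed for cross-presentation by dendritic cells, averaged 2.60 (SE 0.13) and Irf8, a transcription factor of myeloid cells and activated CD8+ T cells, 1.46 (SE 0.07).

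**Figure D2:**
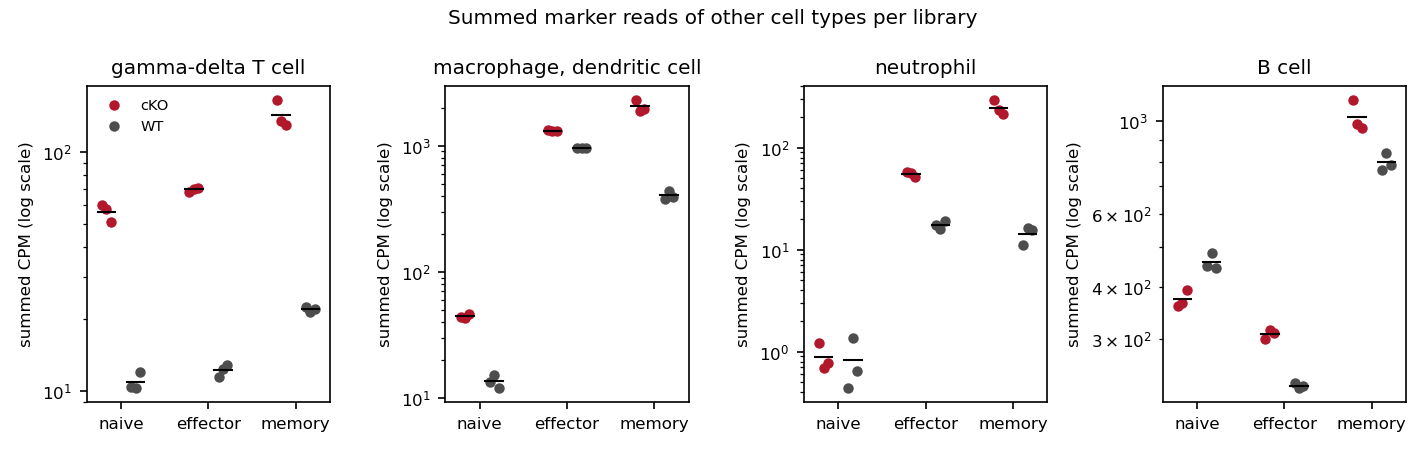
Summed CPM (log axis) of markers of 4 other cell types in each library (points), with group means (bars), cKO left of WT in each subset. Gamma-delta and macrophage and dendritic cell markers were higher in every cKO library of each subset, neutrophil markers in every cKO library of the cultured subsets, and B cell markers were lower in naive cKO libraries.

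Other genes rose strongly in each subset. Spry2, a feedback inhibitor of receptor tyrosine kinase signalling (chromosome 14, 106129381 to 106134253), had 74.9, 60.3 and 91.3 normalised reads in naive cKO and 4.22, 1.01 and 5.45 in naive WT libraries. It had 1023, 1049 and 1017 in effector cKO and 151, 147 and 147 in effector WT, and 1584, 1767 and 1881 in memory cKO and 205, 232 and 242 in memory WT libraries. The effects were 4.21, 2.79 and 2.94, and differed (adjusted p = 0.0094). Every naive WT library lay under 10 normalised reads of Spry2. It passed the filter in naive cells through cKO libraries alone and so had to differ there. The size of its naive effect depends on the pseudocount. Coro2a, a coronin of the actin cytoskeleton, was abundant and rose by 1.72 (SE 0.08), 1.55 (SE 0.08) and 2.52 (SE 0.08). Its means were 2017 ± 187 normalised reads in naive cKO and 609.9 ± 53.02 in naive WT, 2607 ± 103 in effector cKO and 891 ± 38.2 in effector WT, and 1725 ± 92.1 in memory cKO and 300.0 ± 27.4 in memory WT (SD, n = 3 each).

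**Figure D3:**
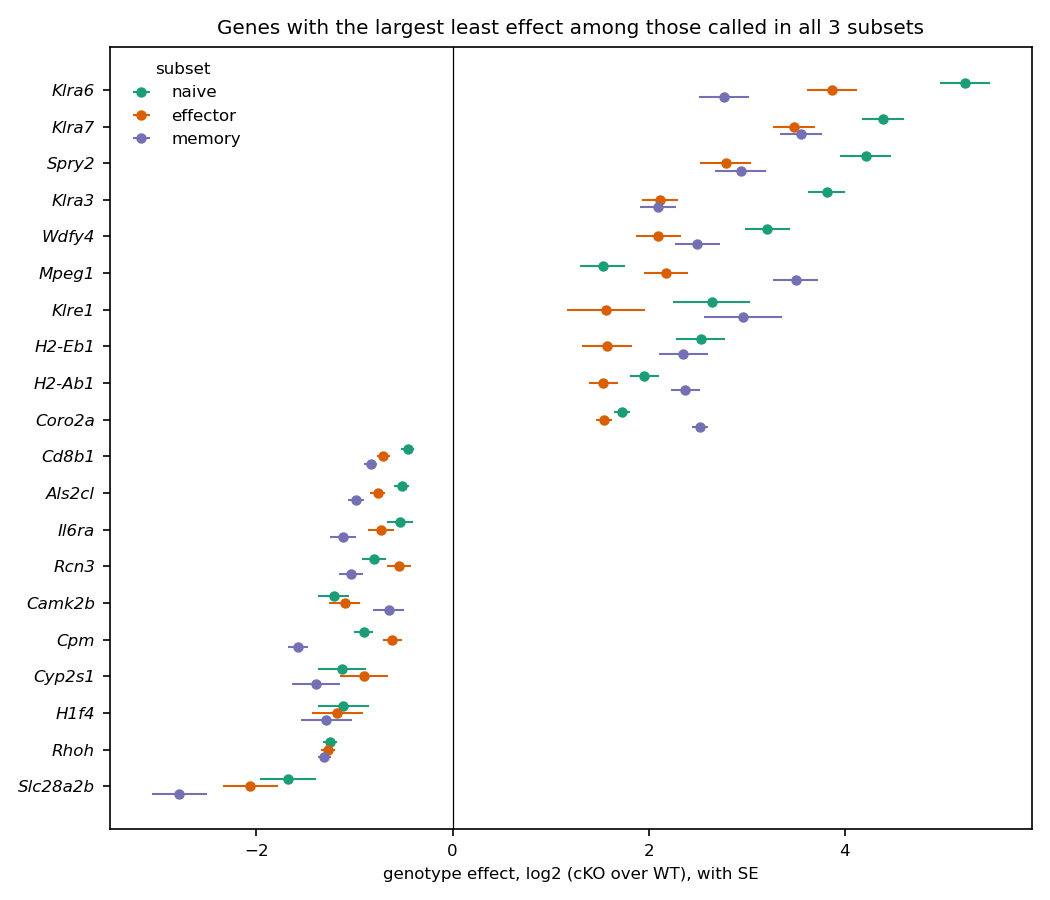
Genotype effect (log2, cKO over WT) with its SE in naive, effector and memory cells for the 10 genes per direction with the largest least effect among genes called in all 3 subsets. Rhoh had nearly the same effect in each subset, -1.25, -1.27 and -1.31, while those of Klra6 spread from 5.22 to 2.77.

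Counts of the lists that follow stand beside 13.7% of all genes tested called higher and 14.2% called lower on average, and 1.41% and 0.353% in all 3 subsets. The lists were chosen with earlier results of these data known, so their counts are descriptions only. Survival and death regulators of the BCL2 family were called higher more often than lower. Bcl2, which blocks mitochondrial apoptosis, had 8958 ± 545 normalised reads in naive cKO and 4529 ± 163 in naive WT, 2207 ± 45.2 in effector cKO and 699.5 ± 25.3 in effector WT, and 7079 ± 151 in memory cKO and 3701 ± 169.9 in memory WT (SD, n = 3 each). Its effects were 0.98, 1.66 and 0.94 (average 1.19, SE 0.03, adjusted p = 5.5e-17), largest in effector cells. Bcl2l11, which encodes the death-promoting BIM, rose by 0.98, 0.56 and 0.92. Of 22 genes of the list tested 13 rose on average and 1 fell, and 5 rose in all 3 subsets, the others being Bcl2l1, Bbc3 and Pmaip1. Of 26 p53 targets 15 rose and 4 fell on average, and 5 rose in all 3 subsets, Bbc3 and Pmaip1 counted in both lists. By subset 12 genes of the BCL2 list were called higher and 1 lower in naive cells, 6 and 0 in effector cells, and 9 and 1 in memory cells. For p53 targets these counts were 17 and 2, 7 and 1, and 11 and 4.

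Inhibitory receptors and factors linked to T cell exhaustion had 11 of 21 genes higher on average and 1 lower, and 8 of the 11 rose in all 3 subsets, against 1.41% of all genes. Lilrb4a and Lilrb4b, neighbouring paralogs for inhibitory receptors, averaged 2.06 (SE 0.08) and 2.11 (SE 0.09). Ikzf2, encoding Helios, rose by 1.68, 2.22 and 0.95. Ikzf2 and Ctla4 are also markers of CD4 T cells and Treg cells. Those 6 markers summed to 184 ± 13.4 CPM in naive cKO and 83.6 ± 7.20 in naive WT, 181 ± 8.17 in effector cKO and 154 ± 3.48 in effector WT, and 301 ± 37.1 in memory cKO and 330 ± 14.2 in memory WT libraries. Of 5 tested 3 rose and 1 fell on average, Il4 was at 0 in effector cKO libraries, and their part in the result was not tested. Entpd1, the ectoenzyme CD39, rose by 1.45, 0.71 and 1.83, and Tigit by 2.91, 0.50 and 1.08. Ctla4 fell on average with effects of 0.68, -0.39 and -1.16, so the list did not move as 1 block. Among 26 effector genes 19 rose and 2 fell on average, 5 rose and 1 fell in all 3, among them Bhlhe40, a transcription factor of activated T cells, by 3.66, 0.32 and 1.86. Cytokine receptors and their feedback had 12 genes higher and 4 lower among 27, with Il2rb, the IL-2 and IL-15 receptor beta chain, at 0.37, 0.28 and 1.20 and Cish, a feedback inhibitor of cytokine signalling, at 1.25, 0.72 and 2.50. Immediate early genes had 17 higher and 3 lower among 26, and Dusp5, a phosphatase of ERK, and Nr4a1, an orphan nuclear receptor, rose in all 3 subsets by 2.13, 0.37 and 0.81 and by 1.98, 0.23 and 0.20. Calls by subset, higher and lower, are given for naive, effector and memory cells in turn. Inhibitory receptors had 16 and 0, 9 and 4, and 12 and 2. Effector genes had 17 and 3, 7 and 2, and 20 and 2. Cytokine receptors had 9 and 8, 12 and 1, and 10 and 5. Immediate early genes had 17 and 1, 6 and 3, and 13 and 3.

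Genes of the naive and central memory state fell more often than they rose, 19 against 4 of 29 on average, and 7 fell in all 3 subsets, against 0.353% of all genes. This list too was chosen with earlier results of these data known. By subset 5 were called higher and 15 lower in naive cells, 9 and 10 in effector cells, and 1 and 21 in memory cells. The 7 were Tcf7 and Actn1, Slamf6 and S1pr1, Il6ra, Dapl1 and Als2cl. Als2cl, a homologue of a Rab GTPase exchange factor, had 6071 ± 453 normalised reads in naive cKO and 8705 ± 799.8 in naive WT, 427 ± 12.5 in effector cKO and 727 ± 76.2 in effector WT, and 2959 ± 174 in memory cKO and 5849 ± 318 in memory WT (SD, n = 3 each). Its effects were -0.52, -0.76 and -0.98. Tcf7, encoding the transcription factor TCF-1 of naive and memory T cells, fell by 0.32, 0.32 and 0.62 on the log2 scale. Il6ra, the IL-6 receptor, fell by 0.54, 0.73 and 1.12. Dapl1, known from quiescent T cells, fell by 1.61, 0.92 and 2.41, though its effector libraries overlapped, with 16.2, 9.99 and 11.2 normalised reads in cKO and 29.1, 15.6 and 30.0 in WT. The list did not behave alike everywhere. Il7r, the IL-7 receptor alpha chain, had effects of -0.48, 0.56 and -0.49, and Bcl2, also of the list, rose.

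Rhoh, a GTPase-deficient protein needed for T cell receptor signalling (chromosome 5, 66018556 to 66054043), had the most even fall of the 10 lower genes named by the least of their effects. It had 1469.9, 1383 and 1467 normalised reads in naive cKO and 3422, 3639 and 3233 in naive WT libraries. Effector libraries held 723, 728 and 718 in cKO and 1758, 1762 and 1706 in WT, and memory libraries 1461, 1181 and 1216 in cKO and 3083, 3369 and 3054 in WT. The genotypes stood well apart in each subset. The average effect was -1.27 (SE 0.04, adjusted p = 5.6e-16), with no called difference between subsets (adjusted p = 0.90). Cd8b1, the CD8 beta chain, had 13336 ± 142 normalised reads in naive cKO and 18322 ± 584 in naive WT, 12705 ± 235 in effector cKO and 20714 ± 325 in effector WT, and 8570.4 ± 791 in memory cKO and 15263 ± 970.4 in memory WT (SD, n = 3 each). It fell by 0.46, 0.71 and 0.83, a difference between subsets that passed the test (adjusted p = 0.0089). Among 27 genes of CD8 T cell identity and T cell receptor signalling 14 fell and 6 rose on average, and Cd8b1, Themis and Cd247 fell in all 3. Cd247 is the CD3 zeta chain and Themis a regulator of receptor signalling. Cd8a fell on average, with effects of -0.22, -0.12 and -0.38.

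The other falls called in all 3 and named by size were those of Slc28a2b, H1f4, Cyp2s1, Camk2b, Cpm and Rcn3. Slc28a2b, of a nucleoside transporter family, had 1044, 1062 and 1072 normalised reads in naive cKO and 3248, 3415 and 3528 in naive WT libraries, and 524, 504 and 535 in memory cKO and 3619, 3414 and 3758 in memory WT libraries. It was scarce in effector cells, at 5.07, 14.5 and 25.3 in cKO and 64.4, 49.8 and 53.3 in WT. Its average effect of -2.17 (SE 0.16) was the largest fall of the genes named. H1f4, a linker histone whose mRNA mostly lacks a poly-A tail, averaged -1.19 (SE 0.15). Cpm, a membrane carboxypeptidase, averaged -1.03 (SE 0.06), and Camk2b, a calmodulin-dependent kinase, -0.99 (SE 0.09).

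**Figure D4:**
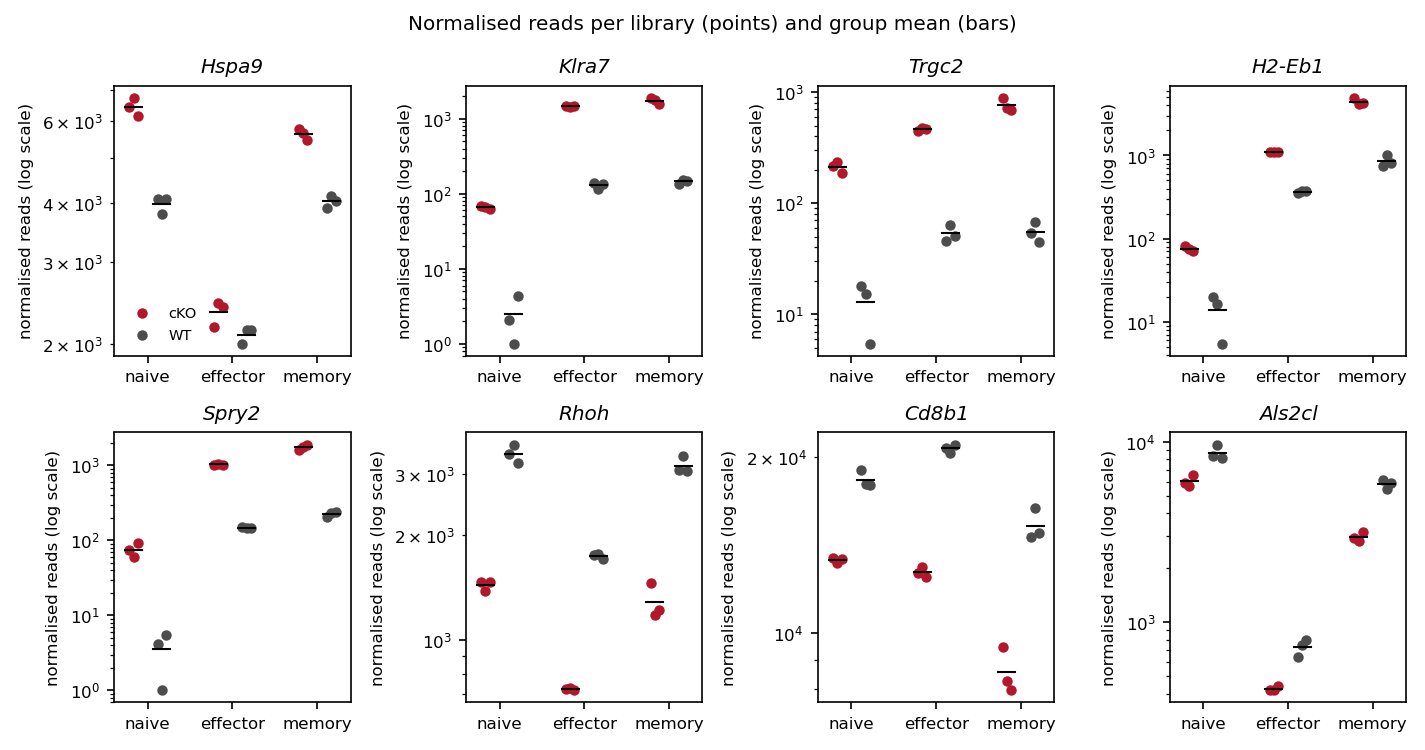
Normalised reads (log axis) of 8 genes in each library (points) with group means (bars), cKO left of WT in each subset; scaling was set within each subset, so levels are compared within a subset. Hspa9, Klra7, Trgc2, H2-Eb1 and Spry2 were higher, and Rhoh, Cd8b1 and Als2cl lower, in every cKO library of each subset.

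The 4 genes with the largest average rise were Cox6a2, Trib3, Vegfa and Klra6, of which Vegfa and Klra6 were called in all 3 subsets and Cox6a2 and Trib3 were not called in effector cells. Cox6a2, a muscle form of a subunit of respiratory complex IV, had 599, 518 and 519 normalised reads in naive cKO and 2.11, 2.02 and 2.18 in naive WT libraries, and 646, 522 and 464 in memory cKO and 8.93, 15.2 and 9.61 in memory WT libraries. Effector cells held 13.2, 14.5 and 17.2 in cKO and 11.4, 10.4 and 6.78 in WT. Its effects were thus 7.46, 0.62 and 5.50 (average 4.53, SE 0.14), and the effector effect was not called (adjusted p = 0.12). In naive cells Cox6a2 passed the filter through cKO libraries alone, so it had to differ there, and the naive effect depends on the pseudocount. Trib3, a stress-induced pseudokinase, had effects of 7.04, 0.65 and 4.41, and Vegfa, an angiogenic factor, of 6.95, 1.43 and 3.59. For each of these genes the difference between subsets passed the test.

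Targets of ATF4, the transcription factor of the integrated stress response, show the same split. Of 44 joined, 36 were tested and 32 rose on average, with 0 lower, but 20 had 1 sign in all 3 and 3 (Vegfa, Ddit3 and Slc3a2) rose in all 3 subsets. Naive cells called 31 higher and 2 lower, effector cells 5 and 2, and memory cells 29 and 0. Median effects of the targets in naive, effector and memory cells were 1.50, 0.08 and 0.84, where all genes tested had medians of -0.02, -0.01 and -0.03. Atf5, which drives transcription under mitochondrial stress, had effects of 4.07, 0.27 and 2.90, and Soat2, which esterifies cholesterol, of 6.09, 0.23 and 3.16. Cytosolic tRNA synthetases had 13 of 21 higher and 1 lower on average, 2 of the 13 with 1 sign. They had 13 higher and 3 lower in naive cells, 0 and 0 in effector cells and 13 and 0 in memory cells.

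Mitochondrial DNA encodes 13 mRNAs, of which 12 fell on average, yet only mt-Nd4l had 1 sign in all 3 subsets, with effects of -1.27, -0.07 and -0.92. Their median stood at -1.67, 0.16 and -0.77 in naive, effector and memory cells. Reads of the mitochondrial chromosome made up 0.821 ± 0.0756% in naive cKO and 2.12 ± 0.222% in naive WT libraries, 2.17 ± 0.0488% in effector cKO and 1.86 ± 0.0603% in effector WT, and 1.55 ± 0.268% in memory cKO and 2.41 ± 0.0679% in memory WT (SD, n = 3 each). The share was lower on average by 0.61 percentage points in cKO (exact permutation test within subsets, two-sided p = 0.0115), with the opposite direction in effector cells. Cytosolic ribosomal protein genes fell on average in 51 of 77, 30 of them with 1 sign and 0 called in all 3, with a median effect of -0.20. By subset 60 were called lower and 2 higher in naive cells, 1 and 1 in effector cells, and 11 and 0 in memory cells. Their medians there were -0.37, -0.01 and -0.21. Among nuclear-encoded respiratory chain and ATP synthase subunits the count was 20 lower and 2 higher of 79, beside 14.2% and 13.7% of all genes, and 0 in all 3 subsets. Taken by subset, naive cells called 28 lower, effector cells 0 and memory cells 4.

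Most genes of the systems in which GRP75 works were not called on average. Of 24 mitochondrial chaperones and proteases other than Hspa9, 5 fell and 0 rose on average, and 0 were called in all 3 subsets. Dnajc15, a co-chaperone of the import motor, had the effects -0.82, -0.14 and -0.70. Hspd1 and Hspe1, the matrix chaperonins, had average effects of -0.07 (adjusted p = 0.15) and -0.14 (adjusted p = 0.073). Of 29 protein import genes 2 fell, of 23 iron-sulfur assembly genes 2 fell and 1 rose, and of 28 genes of calcium transfer from the endoplasmic reticulum 4 fell and 2 rose. Over all genes tested the shares were 13.7% higher and 14.2% lower.

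The averages of cell division genes joined opposite effects. Of 39 mitosis and spindle genes 32 rose on average, 0 of these with 1 sign in all 3, and for all 39 the effect differed between subsets. Naive cells called 38 higher and 1 lower, effector cells 0 and 18, and memory cells 11 and 1. Smc4, a condensin subunit, fell in all 3 subsets by 0.16, 0.22 and 0.58. Aspm, a spindle pole protein, had 126, 123 and 141 normalised reads in naive cKO and 12.7, 16.1 and 10.9 in naive WT libraries, but 1094, 919 and 1023 in effector cKO and 1421, 1346 and 1344 in effector WT libraries. In memory cells it had 171, 228 and 219 in cKO and 163, 136 and 168 in WT. Of 37 DNA replication genes 20 were higher in naive and 18 lower in effector cells. Interferon-stimulated genes had 25 of 45 higher on average with 0 lower, 12 with 1 sign, beside 13.7% of all genes higher, and Oas1a, Rsad2 and Usp18 rose in all 3. Naive cells, where sex and genotype coincide, called 31 of them higher and 2 lower, effector cells 11 and 1, and memory cells 6 and 5.

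Of the 119 genes called in all 3 subsets without sharing 1 sign, 2 per subset with the widest range among genes called on average are named, Aspm being one of them. Klrk1, encoding the activating receptor NKG2D, was lower in naive cKO, at 133, 119 and 107 normalised reads against 183, 172 and 204 in naive WT. It was higher in the cultured subsets, with effects of 0.63 in effector and 1.74 in memory cells. Naaa, an acid amidase, did the same with -0.60, 0.84 and 2.44. Niban1, a stress-induced gene, fell in effector cells and rose elsewhere (4.37, -0.28 and 1.79). Glrx, glutaredoxin, and Oas2, an interferon-induced synthetase, turned round in memory cells, with -0.92, -0.32 and 0.51 and with 0.94, 0.49 and -0.38.

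**Figure D5:**
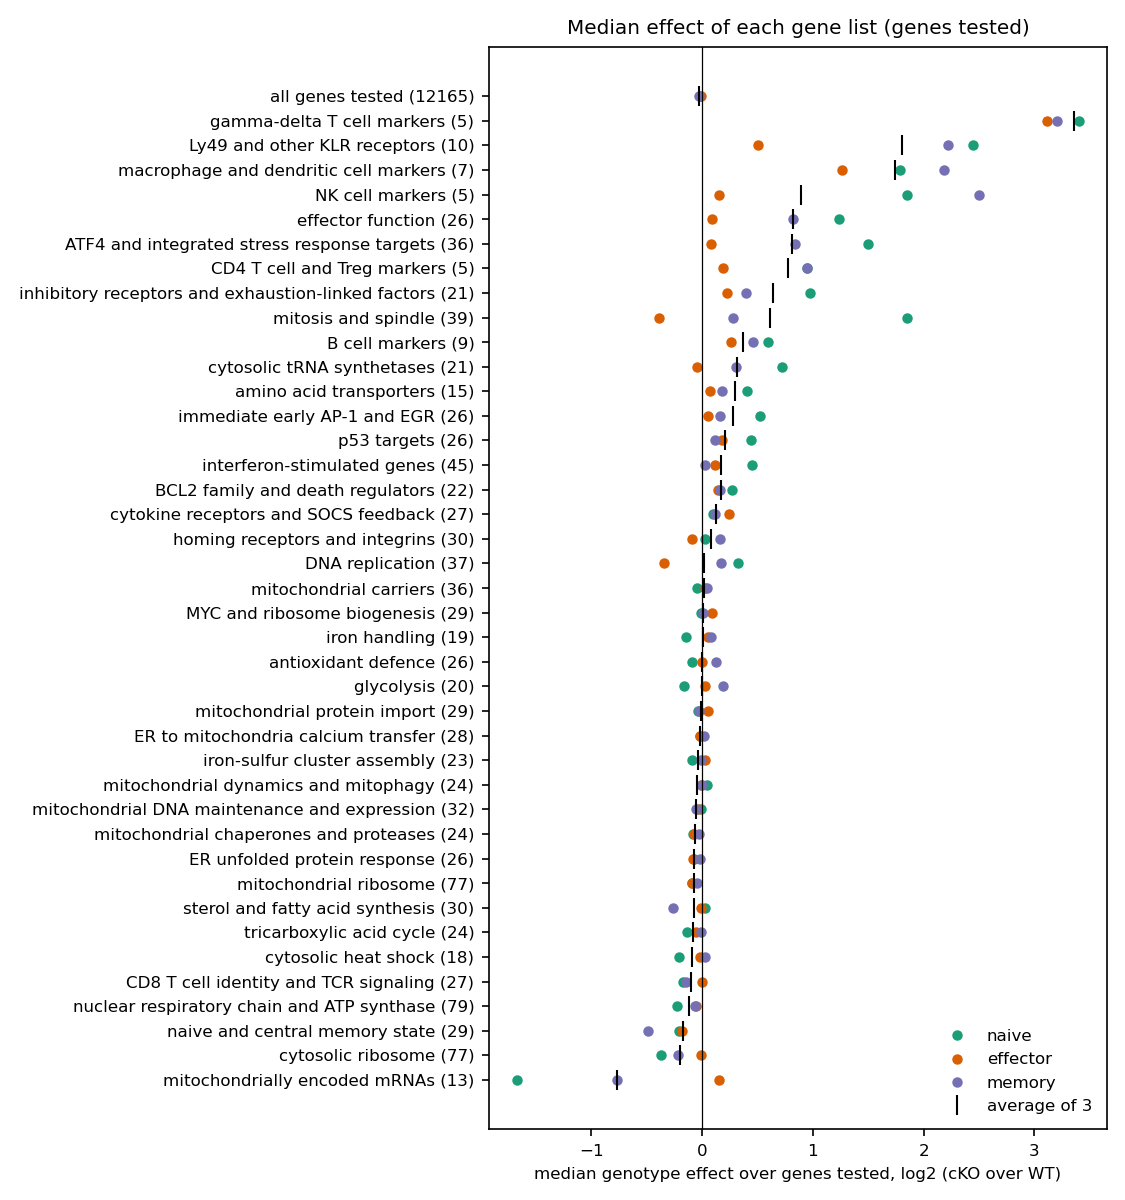
Median genotype effect (log2, cKO over WT) of the tested genes of each list in naive, effector and memory cells (points) and for the average effect (bars), with the number tested in brackets. Gamma-delta T cell markers had nearly equal medians of 3.40, 3.11 and 3.20, while mitosis genes had 1.85, -0.39 and 0.28.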

How the data were processed

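The submitters' processing notes name the build GRCm39 and the tools DESeq2 1.42.0, featureCounts 2.0.6, HISAT2 2.2.1 and fastp; settings, annotation and strand use are not given in the sources used here. The authors deposited 1 table per subset, holding for each gene and library a signal value, that is reads divided by a size factor set within the table. The authors' log2 fold changes and adjusted p-values stand beside them in the deposited tables. Dividing by the worth of 1 read gave whole reads for 100% of values (largest deviation 4.5e-06 reads, tolerance 1e-05), so CPM and the alternatives with edgeR 4.0.16 and DESeq2 1.42.0, run on recovered reads, were possible; edgeR called 1684 genes higher and 1754 lower on average.

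The main test was limma 3.58.1 in R 4.3.3 with 6 group means and an intensity trend, on log2 of normalised reads plus 1, with contrasts within subsets, since levels of separately scaled tables are not comparable. Genes were joined by identifier, and 8033 joined genes fell under the filter. The procedure was tested on simulated data. The gene lists and the genes were chosen with earlier results of these data known. Named genes were Hspa9, the 10 per direction with the largest least effect among those called in all 3 with no overlap of libraries, the 4 per direction with the largest average effect, 2 per subset that turned round, and up to 2 per list with the smallest adjusted p among those with 1 sign. Only protein-coding genes of sufficient level counted, a limit not applied to list members, so that Trgc2, Trgc4 and Igkc are named. Others are named as members of a list or after their values were seen. Y-linked genes and Xist were read outside the tests. Some results are not reported here. Single quantities were compared by exact permutation within subsets.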

Additional observations from a re-analysis of the deposited data

Results flagged for a closer look

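The size of the genotype effect differed between subsets (moderated F test of limma, adjusted p under 0.05) for 24 genes. These were Hspa9 and genes named by the size of their effect or by turning round. The range between the largest and the smallest of the 3 log2 effects is given for each. Genes named only from a list are left out, though some also differed, among them Atf5 and Bhlhe40. Among the 24, ranges above 5 were those of Cox6a2 (6.83), Trib3 (6.39) and Vegfa (5.51). Genes that turned round in 1 subset had ranges of 4.65 (Niban1), 3.66 (Aspm), 3.04 (Naaa), 2.37 (Klrk1), 1.43 (Glrx) and 1.32 (Oas2). Among genes called higher in all 3 subsets the ranges were 2.46 for Klra6, 1.97 for Mpeg1, 1.72 for Klra3, 1.42 for Spry2, 1.11 for Wdfy4, 0.97 for Coro2a, 0.90 for Klra7 and 0.84 for H2-Ab1. Among genes lower on average they were 2.80 for Ptprk, which was called in effector and memory cells and had 0.20 in naive cells, 1.49 for Dapl1, 0.96 for Cpm, 0.58 for Il6ra, 0.46 for Als2cl and 0.38 for Cd8b1. Hspa9 had a range of 0.53.

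Genes of the Y chromosome lie outside the comparison and carried reads in the naive libraries labelled cKO. Ddx3y averaged 2907, Eif2s3y 1699, Kdm5d 1275 and Uty 487 normalised reads there, with 0 in the naive WT libraries.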

How the results depend on the processing

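Counts over all genes kept within 1.5 times of their value under each other tool, scaling, pseudocount, filter and variance model tried, except that without a filter on low values 1571 genes were higher on average with 1 sign. Leaving out a subset asks for calls in the remaining pair: without naive, effector or memory cells 367, 503 or 262 genes rose and 141, 280 or 101 fell in both, and without naive or effector cells 1443 or 1895 effects differed. With 1 library left out at a time, genes called on average ranged from 1543 to 1807 higher and from 1492 to 1928 lower, those called in all 3 from 131 to 194 higher and from 34 to 64 lower, and differing effects from 2853 to 3909. Klrk1 changed sign without memory cells (-0.00172, adjusted p = 0.990), as did Aspm (-0.0216, adjusted p = 0.874) and Glrx (0.0949, adjusted p = 0.232) without naive cells; the cause was not tested. A replicate block gave 1447 higher and 1291 lower genes on average and 121 and 31 in all 3; deviations of cKO and WT libraries of 1 number correlated between -0.21 and 0.08, so the numbers were not taken to pair libraries. Scaling to total recovered reads in place of the deposited factors would raise naive effects by 0.12 and memory effects by 0.07 on the log2 scale, so small effects there are relative to that choice. Effects of genes with a few reads in 1 group depend on the pseudocount, and depth limits what can be said of the 8033 genes not tested.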
